A study of Mus musculus with 24 samples.

Results

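The genes described here encode the matrix metalloproteinases (Mmp), the ADAMTS proteases, the ADAMTS-like proteins (Adamtsl) and the tissue inhibitors of metalloproteinases (Timp). They were taken by name from the deposited count table of mouse aorta, as every Mmp, Adamts and Adamtsl gene with a number and Timp1 to Timp4, without Mmp23. This gave 50 of the 21959 genes in the table. There were 22 Mmp, 19 Adamts, 5 Adamtsl and 4 Timp genes. Of these, 39 had enough reads to be tested, among 14216 genes tested in all.

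Matrix metalloproteinases and ADAMTS proteases are secreted or membrane-bound zinc enzymes that cut the collagens, elastin, fibrillin microfibrils and proteoglycans of the vessel wall. Most are made as inactive precursors, and plasmin, furin-type convertases or other metalloproteinases remove the propeptide. Timp proteins bind the active site and block it, and Timp3, which binds to the matrix, also blocks several ADAMTS proteases. ADAMTS-like proteins carry the ancillary domains of ADAMTS without the protease domain, and several of them bind fibrillin microfibrils. In the aorta, these enzymes are known for elastin breakdown in aneurysm and dissection.

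RNA-seq was done on the aortas of 24 male mice, each running from its ascending segment to where it divides in the abdomen, after enrichment of polyadenylated RNA. The groups were ATAD3A-KI-BAPN with 6 libraries (KI-BAPN below), ATAD3A-KI on plain water with 5 (KI), wild type on BAPN with 7 (WT-BAPN) and wild type on plain water with 6 (WT). BAPN, β-aminopropionitrile, blocks lysyl oxidase and so the cross-linking of collagen and elastin. It was given at 0.5% (w/v) in drinking water for 28 days from an age of 3 weeks to induce aortic aneurysm and dissection, and the other animals drank plain water. How the knock-in allele was made, what drives it and which cells carry it is not stated in the labels. Nor is it stated which animals had a dissection.

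Libraries held 13127645 to 26490651 counts. Atad3a, the mitochondrial ATPase that the knock-in is named for, was at 231 to 1038 CPM (counts scaled to library size) in KI-BAPN, 617 to 1629 in KI, 24.9 to 44.8 in WT-BAPN and 30.2 to 61.4 in WT, so no knock-in library overlapped a wild type one. The summed level of 6 smooth muscle markers was 10350 to 39364 CPM in KI-BAPN, 23228 to 53679 in KI, 14886 to 42413 in WT-BAPN and 8762 to 56236 in WT, with every marker detected in every library. WT replicate 5 stood apart, with the lowest of these smooth muscle sums, 5368 CPM of 6 skeletal muscle markers and 17469 CPM of 6 airway epithelium markers. The other WT libraries had 8.56 to 18.4 CPM of the skeletal muscle markers and 5.73 to 112 CPM of the airway markers. KI replicates 1, 2 and 5 had 72.2, 1037 and 161 CPM of 5 sympathetic neuron markers, against 12.1 and 12.7 in the other KI libraries, and KI replicate 5 also had 7359 CPM of 6 adipocyte markers. Fits without these 4 libraries, which keep 2 KI libraries, are given for the members called and where they changed a call. They keep KI-BAPN replicate 3, which had 7499 CPM of the adipocyte markers and the lowest smooth muscle sum of its group, and KI replicate 3, which had 191 CPM of the airway markers.

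A run of 10 Mmp genes, Mmp13, Mmp12, Mmp1b, Mmp3, Mmp1a, Mmp10, Mmp8, Mmp27, Mmp20 and Mmp7, lies on chromosome 9 between 7272514 and 7699586 in the deposited coordinates, a span of 427 kb. Of these, 4 were tested and 3 had no read in any library. RefSeq promoters of GRCm38.p6 were found for 35 of the 50 members, in 37 windows of 250 bases before a start site. The letters TGANTCA, which AP-1 dimers of Fos and Jun proteins bind, were searched on both strands and stood in 8 of the 37 windows (21.6%), against 6.75% of all 32851 windows. All 8 belong to genes of the chromosome 9 run (Mmp3, Mmp13, Mmp12, Mmp10, Mmp1a, Mmp1b, Mmp20 and Mmp7). The TATA box letters TATAAA, likewise on both strands and sharing no base with TGANTCA in the sequences shown, stood in 10 windows (27.0%), against 12.4% of all. The PEA3 letters AGGAAG stood in 14 windows (37.8%), against 29.5% of all. A match is a description of the letters and not a bound site. The last 150 bases before the start site are shown for Mmp3, Mmp13 and Mmp12, which carry the AP-1 letters, and for Timp1 and Adamts12, which rose on BAPN. Capitals mark TGANTCA and TATAAA, and build GRCm38.p6 and RefSeq apply to all 5.
Mmp3, chr9:7445672-7445821, plus strand: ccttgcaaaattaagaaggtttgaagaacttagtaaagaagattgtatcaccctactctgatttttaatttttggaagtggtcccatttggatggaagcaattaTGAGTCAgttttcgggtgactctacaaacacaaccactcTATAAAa
Mmp13, chr9:7272364-7272513, plus strand: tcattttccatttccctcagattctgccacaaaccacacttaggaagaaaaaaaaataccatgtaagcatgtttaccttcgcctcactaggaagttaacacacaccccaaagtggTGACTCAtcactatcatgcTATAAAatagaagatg
Mmp12, second listed start, chr9:7347224-7347373, plus strand: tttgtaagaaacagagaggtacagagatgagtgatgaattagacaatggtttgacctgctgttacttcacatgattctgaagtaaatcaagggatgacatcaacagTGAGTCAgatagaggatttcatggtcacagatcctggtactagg
Timp1, chrX:20870016-20870165, plus strand: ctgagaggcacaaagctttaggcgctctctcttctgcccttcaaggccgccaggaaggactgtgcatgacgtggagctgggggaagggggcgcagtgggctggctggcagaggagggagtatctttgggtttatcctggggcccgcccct
Adamts12, chr15:11064623-11064772, plus strand: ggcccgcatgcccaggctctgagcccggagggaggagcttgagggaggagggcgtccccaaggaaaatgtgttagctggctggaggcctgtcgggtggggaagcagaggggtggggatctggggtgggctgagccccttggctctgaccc
In Mmp3 the AP-1 letters began 46 bases and the TATA letters 7 bases before the start. In Mmp13 these distances were 35 and 16 bases, and in Mmp12 the AP-1 letters began 44 bases before the second listed start. The 150 bases before the first listed start of Mmp12 held neither TGANTCA nor TATAAA.

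Levels were compared between genes as CPM per kb of the gene length in the deposited table, averaged over the 24 libraries. Timp2, which also helps Mmp14 to activate Mmp2, had 207 CPM per kb and ranked first of the 50. Timp1 followed with 91.3, a mean raised by high BAPN libraries, with up to 902 CPM per kb in 1 WT-BAPN library. Its group means were 90.2 CPM per kb in KI-BAPN, 15.9 in KI, 201 in WT-BAPN and 26.8 in WT. On plain water Timp1 lay below Adamts1, which had 48.5 CPM per kb in KI and 58.3 in WT. Over all libraries, Timp3 had 29.5 at rank 5 and Timp4 had 8.11 at rank 14. Among the proteases the versican and aggrecan protease Adamts1 had 45.6 CPM per kb and the stromelysin Mmp3 had 33.1. The fibrillin-binding Adamts10 had 29.0, the procollagen N-proteinase Adamts2 had 26.6 and the membrane-anchored Mmp17, which vascular smooth muscle makes in mice, had 23.8. The gelatinase Mmp2 had 13.4 CPM per kb, against 0.760 for the other gelatinase Mmp9.

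**Figure D1:**
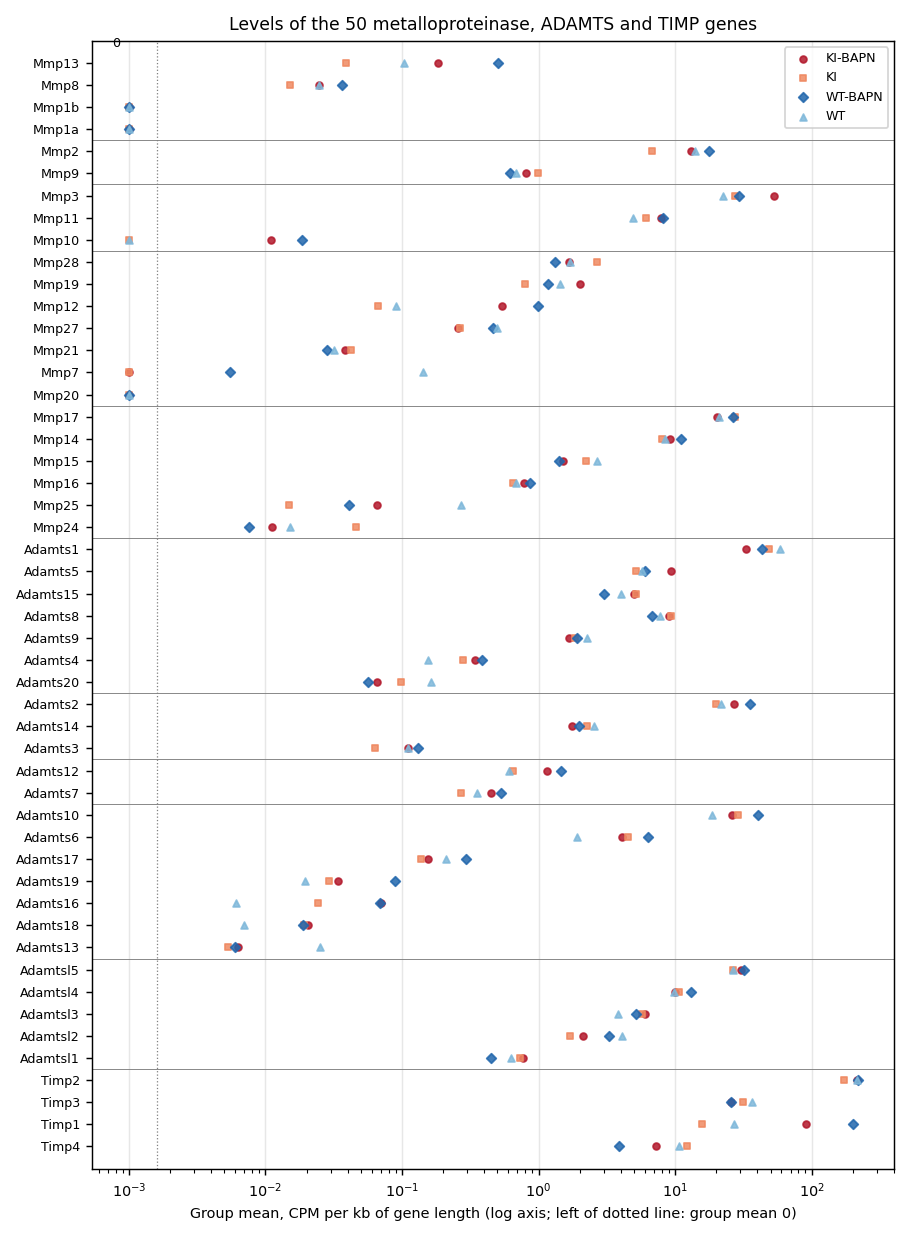
Mean level of each of the 50 members in the 4 groups, in CPM per kb of gene length on a log axis, with horizontal lines between subfamilies. Timp2 sits highest (207 CPM per kb over all libraries), and Mmp1a, Mmp1b and Mmp20 sit at 0 in every group.

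Summed over their genes, the 4 Timp reached 339 ± 92.1 CPM per kb in KI-BAPN (SD, n = 6), 231 ± 63.2 in KI (SD, n = 5), 449 ± 348 in WT-BAPN (SD, n = 7) and 287 ± 76.0 in WT (SD, n = 6). The 22 Mmp summed to 111 ± 35.8 CPM per kb in KI-BAPN, 83.8 ± 37.6 in KI, 100.4 ± 20.6 in WT-BAPN and 79.3 ± 15.4 in WT. The 19 Adamts summed to 119.9 ± 36.3 CPM per kb in KI-BAPN, 127 ± 20.5 in KI, 148 ± 31.2 in WT-BAPN and 124 ± 19.6 in WT. The wide spread of the Timp sum in WT-BAPN came with 1 library at 1199 CPM per kb, the library in which Timp1 was highest.

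At the other end, 11 members were too low to be tested: the collagenases Mmp8, Mmp1a and Mmp1b, then Mmp10, Mmp7, Mmp20, Mmp21, Mmp24, Mmp25, Adamts18 and the von Willebrand factor protease Adamts13. Mmp1a, Mmp1b and Mmp20 had no read in any of the 24 libraries. Mmp8, the neutrophil collagenase, had 32 reads in all, spread over 11 libraries. Mmp10 had 7 reads in 5 libraries. Mmp13, the main interstitial collagenase of rodents, was the only collagenase tested and had 303 reads in 23 libraries.

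WT-BAPN was set against WT to find the changes that BAPN brought in wild type aorta. Of the 39 tested members 5 rose on BAPN and 0 fell (edgeR, Benjamini-Hochberg adjusted p under 0.05). The 5 were the inhibitor Timp1, the stromelysin Mmp11 and the proteases Adamts12, Adamts6 and Adamts16. Over all genes tested 6.14% were called, 3.44% higher and 2.70% lower. The median log2 change of the members was 0.33, against -0.036 for all genes tested, and 24 of 39 were above 0. With an unadjusted p under 0.05 there were 10 members higher and 1 lower, where 12.4% of all genes were higher and 12.5% lower. Without the 4 libraries with other tissue, Adamts12, Adamts6 (log2 change 1.57, edgeR adjusted p = 0.0229), Adamts16 (3.33, edgeR adjusted p = 0.0241) and Mmp11 (0.64, edgeR adjusted p = 0.0462) were still called.

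Among the inhibitors, Timp1 had 18.03 CPM in its lowest WT-BAPN library, a median of 34.9 and a highest value of 801, against 7.21, 23.8 and 38.7 CPM in WT. Only 3 of 7 WT-BAPN libraries lay above every WT library: replicates 7 (801 CPM), 5 (287) and 2 (48.3). The fitted log2 change was 2.91 ± 0.81 (SE, edgeR adjusted p = 0.0369). Without WT-BAPN replicate 7 it was 1.66 (edgeR adjusted p = 0.0871), and without the 4 libraries that held other tissue 2.72 (edgeR adjusted p = 0.0588). The call was kept in 5 of 13 fits that left out 1 library each. It was lost without WT-BAPN replicate 5 (2.75, edgeR adjusted p = 0.0706) and without any 1 of the 6 WT libraries, where the log2 change was 2.72 to 3.10 and the edgeR adjusted p 0.0501 to 0.0736.

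The other inhibitors did not pass the test. Timp4 had 8.96 CPM in its lowest WT-BAPN library, a median of 20.8 and a highest value of 48.9, against 22.4, 60.7 and 105 CPM in WT, a log2 change of -1.44 ± 0.47 (edgeR adjusted p = 0.0644). The groups overlapped. Without the 4 libraries the change was -1.51 and passed (edgeR adjusted p = 0.0233), as it did by DESeq2 (-1.46, adjusted p = 0.0237) and limma voom (-1.22, adjusted p = 0.0250). Timp3 averaged 207 ± 58.9 CPM in WT-BAPN (SD, n = 7) and 299 ± 127 CPM in WT (SD, n = 6), a log2 change of -0.53 (edgeR adjusted p = 0.408). Timp2 averaged 850 ± 133 CPM in WT-BAPN and 830 ± 199 CPM in WT, a log2 change of 0.03 (edgeR adjusted p = 0.930).

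Of the Mmp genes, Mmp11, a stromelysin that furin activates inside the cell, was the 1 called. It had 17.5 CPM in its lowest WT-BAPN library, a median of 23.2 and a highest value of 26.1, against 9.20, 13.2 and 19.001 CPM in WT. All but 1 of the 7 WT-BAPN libraries lay above every WT library. The log2 change was 0.73 ± 0.21 (edgeR adjusted p = 0.0431). It was between 0.63 and 0.84 when 1 library was left out, and the edgeR adjusted p 0.0281 to 0.0866, with the call lost in 10 of 13 fits.

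Mmp12, the macrophage elastase, averaged 7.20 ± 15.7 CPM in WT-BAPN (SD, n = 7) and 0.649 ± 0.851 CPM in WT (SD, n = 6), a log2 change of 3.45 ± 1.25 that did not pass (edgeR adjusted p = 0.0932). Without WT-BAPN replicate 5 it was 0.99 (edgeR adjusted p = 0.570), and DESeq2 called it with all libraries (3.47, adjusted p = 0.0183). WT-BAPN replicate 5 had 42.7 CPM and replicate 2 had 4.67, and the other 5 WT-BAPN libraries had 0.0707 to 1.03 CPM, inside the WT range of 0.0563 to 2.29. Those replicates also had the highest summed level of the 10 macrophage markers in their group, 1123 CPM in replicate 5 and 893 in replicate 2, against 124 to 356 in the other 5. In WT the library with most Mmp12, replicate 5, had 2470 CPM of macrophage markers. No macrophage marker was called among 10 tested, and the part of macrophages or of the other cell types in these values was not tested. In whole tissue, more cells of a type and more RNA per cell cannot be told apart.

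Mmp13 followed the same libraries. It had 6.82 CPM in WT-BAPN replicate 5 and 1.31 in replicate 2, while the other 5 WT-BAPN libraries had 0 to 0.629 CPM and the WT libraries 0.0460 to 0.572 CPM. Its log2 change was 2.28 ± 0.90 (edgeR adjusted p = 0.119), and without WT-BAPN replicate 5 it was 0.71 (edgeR adjusted p = 0.587). Mmp3, Mmp2, Mmp9, Mmp14 and Mmp17 moved little relative to their spread. Mmp3 averaged 52.5 ± 37.9 CPM in WT-BAPN and 40.7 ± 21.1 in WT (edgeR adjusted p = 0.721). Mmp2 averaged 60.0 ± 24.1 CPM in WT-BAPN and 47.4 ± 23.7 in WT (edgeR adjusted p = 0.628). Mmp9 averaged 2.20 ± 0.666 CPM in WT-BAPN and 2.41 ± 0.669 in WT (edgeR adjusted p = 0.843). Mmp14, the membrane-type activator of Mmp2, averaged 66.3 ± 21.8 CPM in WT-BAPN and 50.02 ± 11.7 in WT (edgeR adjusted p = 0.297). Mmp17 averaged 176 ± 53.8 CPM in WT-BAPN and 138 ± 80.2 in WT, where WT replicate 5 had 13.3 CPM (edgeR adjusted p = 0.648). The other 5 tested Mmp genes, Mmp15, Mmp16, Mmp19, Mmp27 and Mmp28, had log2 changes between -0.94 (Mmp15) and 0.33 (Mmp16), and none passed.

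**Figure D2:**
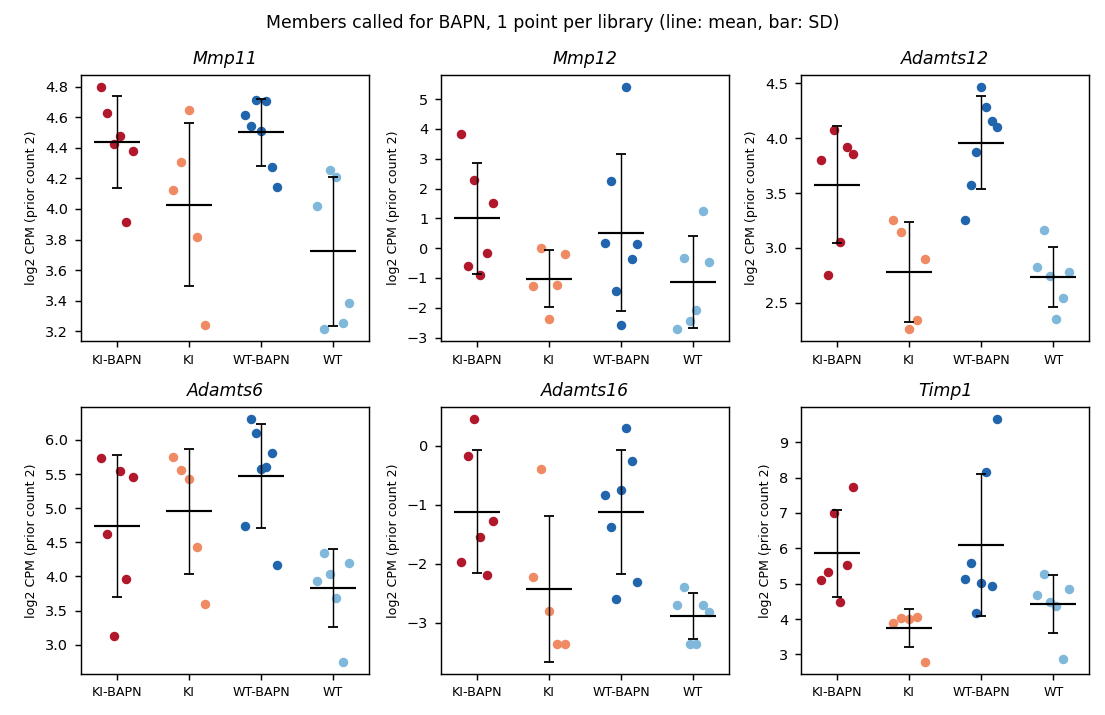
The 6 members called for BAPN, in WT or averaged over both genotypes, as log2 CPM with a prior count of 2, 1 point per library, with the mean as a line and the SD as a bar. Adamts12 in WT-BAPN lies above every WT library (9.45 to 22.1 CPM, against 5.02 to 8.87), and Timp1 in WT-BAPN has points at 801 and 287 CPM far above the rest of its group.

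Among the ADAMTS proteases, Adamts12, which cleaves cartilage oligomeric matrix protein (Comp), had the smallest p of all members. It had 9.45 CPM in its lowest WT-BAPN library, a median of 17.1 and a highest value of 22.1, against 5.02, 6.69 and 8.87 CPM in WT. Every one of the 7 WT-BAPN libraries lay above all 6 WT libraries. The mean was 16.02 ± 4.38 CPM in WT-BAPN (SD, n = 7) and 6.66 ± 1.31 CPM in WT (SD, n = 6), a log2 change of 1.26 ± 0.24 (edgeR adjusted p = 0.0107). The call was kept in 13 of 13 fits that left out 1 library, at log2 changes of 1.17 to 1.36. The related Comp protease Adamts7 averaged 3.35 ± 2.13 CPM in WT-BAPN and 2.22 ± 0.863 in WT and did not pass (edgeR adjusted p = 0.340). The 8 adventitial fibroblast markers summed to 635 to 3051 CPM in WT-BAPN and 565 to 4324 CPM in WT, with 1 of the 8 called higher, and 1 of the 6 smooth muscle markers was called lower. Called lower in WT-BAPN were also 5 of 6 airway epithelium markers, 4 of 4 tested skeletal muscle markers and 3 of 6 Schwann cell markers, all 3 lists highest in WT replicate 5. The airway sum was also 5.73 to 112 CPM in the other WT libraries, against 0.212 to 11.9 CPM in WT-BAPN, with a median of 0.840. Without the 4 libraries with other tissue the log2 change of Adamts12 was 1.22 (edgeR adjusted p = 0.00692). That fit keeps the airway difference between the other WT libraries and WT-BAPN. The part of all these cells in the Adamts12 level was not tested.

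Adamts6 and Adamts10 are close relatives that bind fibrillin microfibrils. Adamts6 had 17.9 CPM in its lowest WT-BAPN library, a median of 48.8 and a highest value of 78.7, against 6.63, 15.8 and 20.2 CPM in WT. All but replicate 7 of the WT-BAPN libraries lay above every WT library. The log2 change was 1.72 ± 0.42 (edgeR adjusted p = 0.0239), and the call was kept in 13 of 13 fits that left out 1 library. Adamts10 had 135 CPM in its lowest WT-BAPN library, again replicate 7, a median of 383 and a highest value of 468, against 64.6, 161 and 216 CPM in WT. Its log2 change of 1.11 ± 0.35 missed the threshold (edgeR adjusted p = 0.0575).

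Adamts16 was a low gene. The WT libraries held 0 to 2 of its reads each and the WT-BAPN libraries 1 to 23, or 0.471 ± 0.375 CPM in WT-BAPN (SD, n = 7) and 0.0419 ± 0.0361 CPM in WT (SD, n = 6). The fitted log2 change was 3.26 ± 0.97 (edgeR adjusted p = 0.0465), and the call was kept in 1 of 13 fits that left out 1 library. The remaining members of its class, Adamts17 with a log2 change of 0.49 (edgeR adjusted p = 0.379) and Adamts19 with 2.17 (edgeR adjusted p = 0.260), did not pass.

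Adamts2, one of the enzymes that remove the amino-terminal propeptide of procollagen, had 267 CPM in its lowest WT-BAPN library, a median of 315 and a highest value of 405, against 58.1, 233 and 256 CPM in WT. The groups did not overlap, as they did not for Adamts12, where 1.25% of all genes tested had every WT-BAPN library above every WT library. The fit, with a log2 change of 0.71 ± 0.29, did not pass (edgeR adjusted p = 0.135). The other procollagen proteases, Adamts14 (edgeR adjusted p = 0.566) and Adamts3 (edgeR adjusted p = 0.724), did not pass either.

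None of the 7 proteoglycan-cleaving ADAMTS passed in edgeR in this comparison. Adamts1 averaged 229 ± 72.3 CPM in WT-BAPN (SD, n = 7) and 309 ± 64.8 CPM in WT (SD, n = 6), a log2 change of -0.43 (edgeR adjusted p = 0.504). The aggrecanase Adamts5 averaged 64.6 ± 16.4 CPM in WT-BAPN and 61.8 ± 16.6 CPM in WT (edgeR adjusted p = 0.891). The other aggrecanase, Adamts4, averaged 1.84 ± 1.41 CPM in WT-BAPN and 0.750 ± 0.322 CPM in WT, a log2 change of 1.29 ± 0.50 (edgeR adjusted p = 0.112). Adamts9 averaged 28.9 ± 7.59 CPM in WT-BAPN and 34.2 ± 7.00 CPM in WT, and Adamts8 averaged 31.2 ± 14.4 CPM in WT-BAPN and 35.9 ± 14.1 CPM in WT. The 5 Adamtsl genes had log2 changes between -0.48 (Adamtsl1) and 0.42 (Adamtsl3), and none passed in edgeR.

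**Figure D3:**
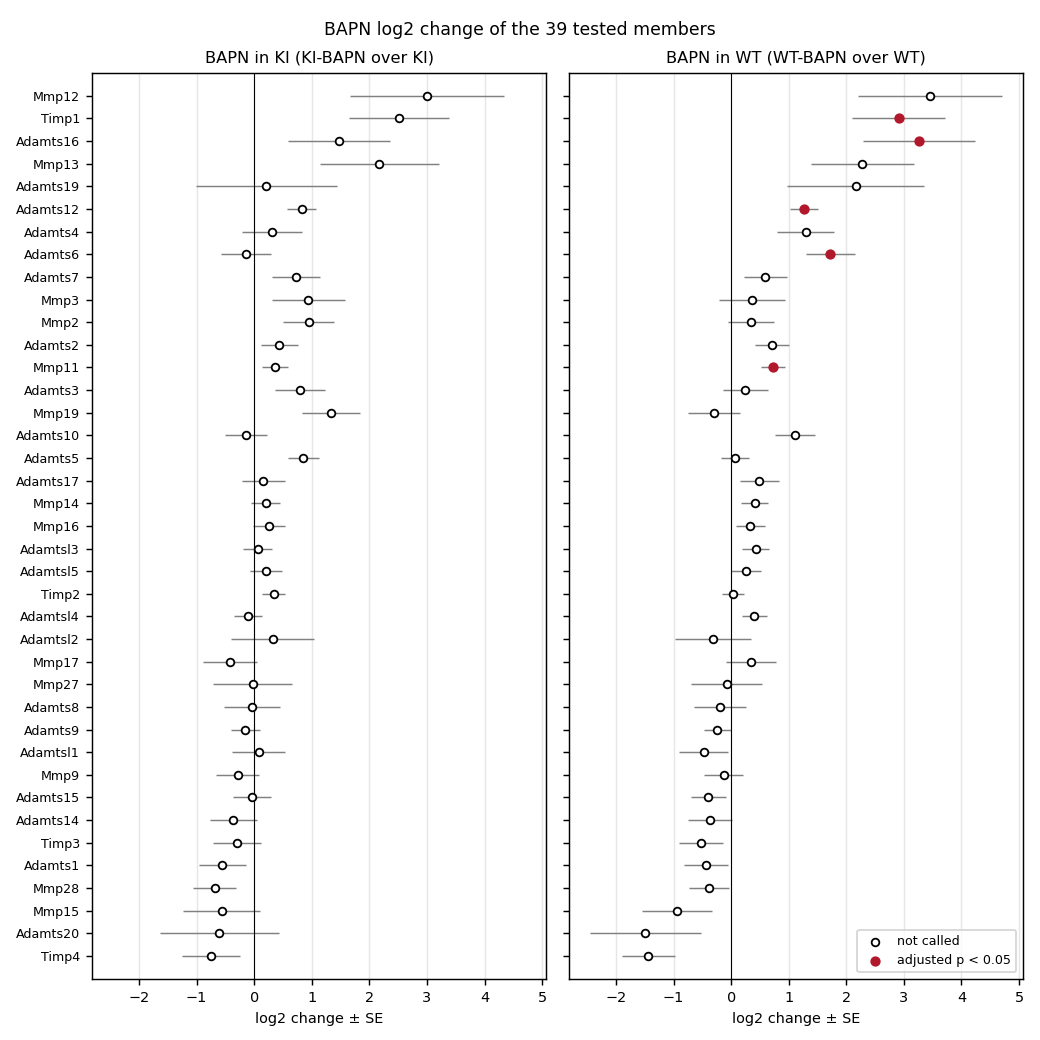
Log2 change ± SE of the 39 tested members for BAPN in KI (left) and BAPN in WT (right), with genes in the same order in both. Filled points are the 5 called in WT (Timp1, Mmp11, Adamts12, Adamts6 and Adamts16), and none is filled in KI.

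KI-BAPN was then set against KI. edgeR called 0 of the 39 members, where 0.0352% of all genes tested were called (5 genes). At an unadjusted p under 0.05 there were 7 members higher and 0 lower, where 4.89% of all genes were higher and 5.21% lower. DESeq2 called 1 member, Timp1 (log2 change 2.51, DESeq2 adjusted p = 0.0476), and limma voom called 0. The median log2 change of the members was 0.20, against -0.026 for all genes tested.

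Timp1 had 22.1 CPM in its lowest KI-BAPN library, a median of 43.1 and a highest value of 211, against 14.7, 16.1, 16.04, 16.7 and 6.85 CPM in the 5 KI libraries. The groups did not overlap, which was the case in this direction for 0.478% of all genes tested. The log2 change was 2.51 ± 0.87 (edgeR adjusted p = 0.303). The 2 highest libraries, KI-BAPN replicates 6 (211 CPM) and 3 (127 CPM), also had the highest sums of macrophage markers in their group, 1434 and 2470 CPM, and of 8 adventitial fibroblast markers, 4070 and 4241 CPM. The other KI-BAPN libraries had 234 to 453 CPM of macrophage markers and 1500 to 2169 CPM of fibroblast markers. The part of these cells in the Timp1 level was not tested.

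**Figure D4:**
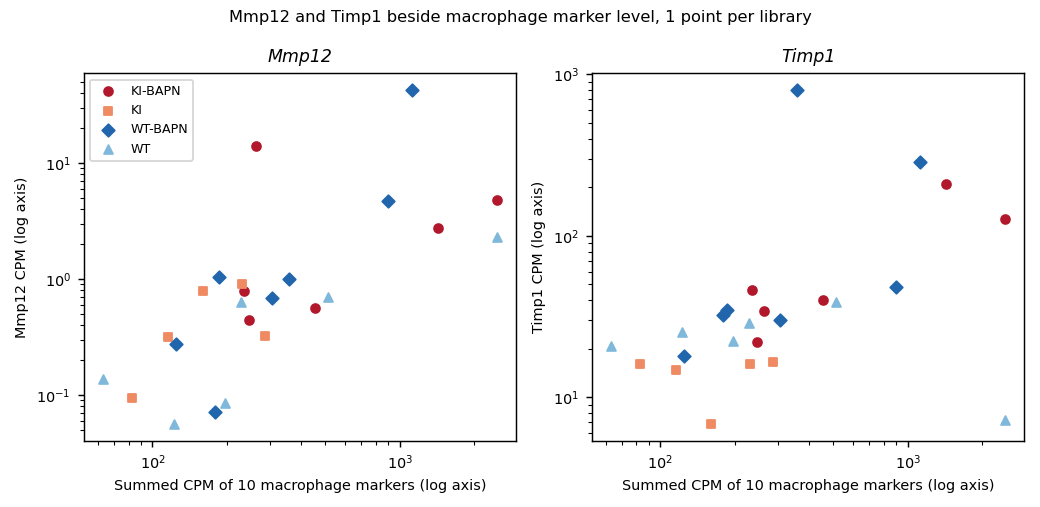
CPM of Mmp12 (left) and Timp1 (right) against the summed CPM of 10 macrophage markers, 1 point per library, all axes logarithmic. WT-BAPN replicate 7 has the highest Timp1 (801 CPM) at a marker sum of 356 CPM, and WT replicate 5 has the lowest Timp1 in WT (7.21 CPM) at a sum of 2470 CPM.

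Adamts12 had 6.67 CPM in its lowest KI-BAPN library, a median of 14.1 and a highest value of 16.8, against 9.43, 8.75, 4.70, 5.00 and 7.37 CPM in the KI libraries. Of the 6 KI-BAPN libraries 4 lay above every KI library, and the log2 change was 0.82 ± 0.26 (edgeR adjusted p = 0.241). Adamts5 had 57.0 CPM in its lowest KI-BAPN library, a median of 87.7 and a highest value of 185, against 50.5, 75.3, 54.7, 61.0 and 39.1 CPM in KI, with a log2 change of 0.85 ± 0.27 (edgeR adjusted p = 0.242). Its highest value was in KI-BAPN replicate 3. Neither gene passed the test.

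Mmp12 had 0.444 CPM in its lowest KI-BAPN library, a median of 1.77 and a highest value of 14.1, against 0.314, 0.899, 0.0941, 0.324 and 0.785 CPM in KI, with a log2 change of 3.00 ± 1.34 (edgeR adjusted p = 0.456). The highest value was in KI-BAPN replicate 1, whose macrophage marker sum was 262 CPM. Mmp19, a secreted Mmp, averaged 7.11 ± 4.66 CPM in KI-BAPN (SD, n = 6) and 2.83 ± 1.43 CPM in KI (SD, n = 5), a log2 change of 1.33 ± 0.51 (edgeR adjusted p = 0.366). Mmp2 averaged 44.0 ± 35.9 CPM in KI-BAPN and 22.8 ± 12.1 CPM in KI (edgeR adjusted p = 0.477). Mmp13 averaged 0.486 ± 0.486 CPM in KI-BAPN and 0.103 ± 0.0461 CPM in KI (edgeR adjusted p = 0.482). Mmp3 averaged 95.2 ± 52.8 CPM in KI-BAPN and 49.8 ± 53.4 CPM in KI (edgeR adjusted p = 0.619).

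Adamts6 and Adamts10 gave other values here than in WT. Adamts6 had 8.60 CPM in its lowest KI-BAPN library, a median of 34.2 and a highest value of 53.0, against 53.8, 47.0, 43.0, 21.4 and 12.0 CPM in KI, a log2 change of -0.15 (edgeR adjusted p = 0.927). Adamts10 averaged 217 ± 109 CPM in KI-BAPN (SD, n = 6) and 240.1 ± 99.2 CPM in KI (SD, n = 5), a log2 change of -0.15 (edgeR adjusted p = 0.911). Mmp11 averaged 21.9 ± 4.27 CPM in KI-BAPN and 17.1 ± 5.87 CPM in KI, a log2 change of 0.36 (edgeR adjusted p = 0.596). Timp4 averaged 42.4 ± 15.5 CPM in KI-BAPN and 71.4 ± 69.8 CPM in KI (edgeR adjusted p = 0.614), where KI replicate 5 had 193 CPM and the other KI libraries 20.0 to 56.9 CPM.

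Averaged over both genotypes, 5 of the 39 members rose on BAPN and 0 fell (edgeR), where 4.14% of all genes tested were called, 1.98% higher and 2.17% lower. These were Adamts12 (log2 change 1.04 ± 0.17, edgeR adjusted p = 0.0112), Timp1 (2.71 ± 0.60, edgeR adjusted p = 0.0175), Adamts16 (2.37 ± 0.66, edgeR adjusted p = 0.0429), Mmp11 (0.54 ± 0.16, edgeR adjusted p = 0.0479) and Mmp12 (3.23 ± 0.92, edgeR adjusted p = 0.0481). At an unadjusted p under 0.05 there were 12 higher and 2 lower, where 9.46% of all genes were higher and 11.3% lower. Adamts12 and Timp1 kept their call in 24 of 24 fits that left out 1 library. With replicate number added to the model as a block, Adamts12 kept its call (1.02, edgeR adjusted p = 0.0338). Timp1 lost its call there (1.70, edgeR adjusted p = 0.0945). Mmp12 lost its call without WT-BAPN replicate 5 (log2 change 2.00, edgeR adjusted p = 0.133) and kept it in 8 of 24 fits. Adamts16 also kept its call in 8 of 24 fits, and Mmp11 in 7 of 24. Without the 4 libraries with other tissue, Adamts12 (1.29) and Adamts16 (3.69) were still called. The calls of Timp1 (2.50, edgeR adjusted p = 0.0603), Mmp12 (4.29, edgeR adjusted p = 0.0572) and Mmp11 (0.41, edgeR adjusted p = 0.122) were lost. Timp3 (-0.74, edgeR adjusted p = 0.0451) and the secreted Mmp28 (-0.69, edgeR adjusted p = 0.0282) then fell.

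Without BAPN, KI aortas were compared with WT aortas. edgeR, DESeq2 and limma voom each called 0 members, where edgeR called 0.190% of all genes tested (27 genes). At an unadjusted p under 0.05 there were 2 members higher and 1 lower, where 8.66% of all genes were higher and 8.27% lower. The median log2 change of the members was -0.063, against -0.0095 for all genes tested. Adamts6 had 53.8, 47.0, 43.0, 21.4 and 12.0 CPM in the 5 KI libraries, against a lowest value of 6.63, a median of 15.8 and a highest value of 20.2 CPM in WT. Of the 5 KI libraries 4 lay above every WT library, and the log2 change of 1.25 ± 0.44 did not pass (edgeR adjusted p = 0.158). Without the 4 libraries with other tissue it was 0.96 (edgeR adjusted p = 0.755). The KI libraries with 53.8, 47.0 and 12.0 CPM are replicates 1, 2 and 5, which that fit leaves out. It keeps KI replicate 3 (43.0 CPM), which had 191 CPM of the airway markers. The part of other tissue in the Adamts6 level was not tested. Mmp2 had 18.4, 16.4, 23.3, 43.4 and 12.6 CPM in KI, against a lowest value of 25.1, a median of 39.1 and a highest value of 77.9 CPM in WT, a log2 change of -1.06 ± 0.45 (edgeR adjusted p = 0.225), and of -0.55 without those 4 libraries (edgeR adjusted p = 0.924). Only KI replicate 4 reached into the WT range. Adamtsl3 averaged 44.5 ± 6.21 CPM in KI (SD, n = 5) and 29.6 ± 10.4 CPM in WT (SD, n = 6), a log2 change of 0.59 (edgeR adjusted p = 0.233), with WT replicate 5 lowest at 9.21 CPM. Adamts3 averaged 0.344 ± 0.157 CPM in KI and 0.597 ± 0.261 CPM in WT (edgeR adjusted p = 0.356).

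With BAPN, KI-BAPN aortas were compared with WT-BAPN aortas. Again edgeR, DESeq2 and limma voom each called 0 members, where edgeR called 0.00703% of all genes tested (1 gene). At an unadjusted p under 0.05 there were 2 members higher and 1 lower, where 7.27% of all genes were higher and 6.68% lower. Of the 39 members 13 were above 0 and 26 below, with a median log2 change of -0.17, against -0.020 for all genes tested. Adamts5 averaged 101 ± 46.2 CPM in KI-BAPN (SD, n = 6) and 64.6 ± 16.4 CPM in WT-BAPN (SD, n = 7), a log2 change of 0.65 ± 0.24 (edgeR adjusted p = 0.270). Adamts17, the closest relative of Adamts19, averaged 1.21 ± 0.452 CPM in KI-BAPN and 2.28 ± 1.07 CPM in WT-BAPN, a log2 change of -0.91 ± 0.34 (edgeR adjusted p = 0.270). The proteoglycan protease Adamts15 averaged 52.0 ± 34.6 CPM in KI-BAPN and 31.4 ± 6.30 CPM in WT-BAPN, a log2 change of 0.73 ± 0.30 (edgeR adjusted p = 0.290). In each of these the groups overlapped. Among the inhibitors, Timp1 averaged 80.1 ± 74.2 CPM in KI-BAPN and 179 ± 290 CPM in WT-BAPN (log2 change -1.16 ± 0.75, edgeR adjusted p = 0.498), and Timp4 averaged 42.4 ± 15.5 CPM in KI-BAPN and 23.1 ± 14.4 CPM in WT-BAPN (log2 change 0.88 ± 0.46, edgeR adjusted p = 0.399).

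Whether the change on BAPN differed between KI and WT was tested as an interaction. edgeR, DESeq2 and limma voom each called 0 members, and edgeR called 0.00% of all genes tested (0 genes). At an unadjusted p under 0.05 there were 2 members higher and 2 lower, where 6.64% of all genes were higher and 8.21% lower. Adamts6 had the smallest p of the members, with a log2 change on BAPN that was lower in KI than in WT by -1.87 ± 0.60 (edgeR adjusted p = 0.280). For Adamts10 the difference was -1.26 ± 0.51 (edgeR adjusted p = 0.292), for Mmp19 1.63 ± 0.68 (edgeR adjusted p = 0.300) and for Adamts5 0.79 ± 0.36 (edgeR adjusted p = 0.320). The difference for Timp1 was -0.40 ± 1.10 (edgeR adjusted p = 0.880), and for Adamts12 it was -0.44 (edgeR adjusted p = 0.525). A call in WT and none in KI is therefore no shown difference between the genotypes for any member.

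**Figure D5:**
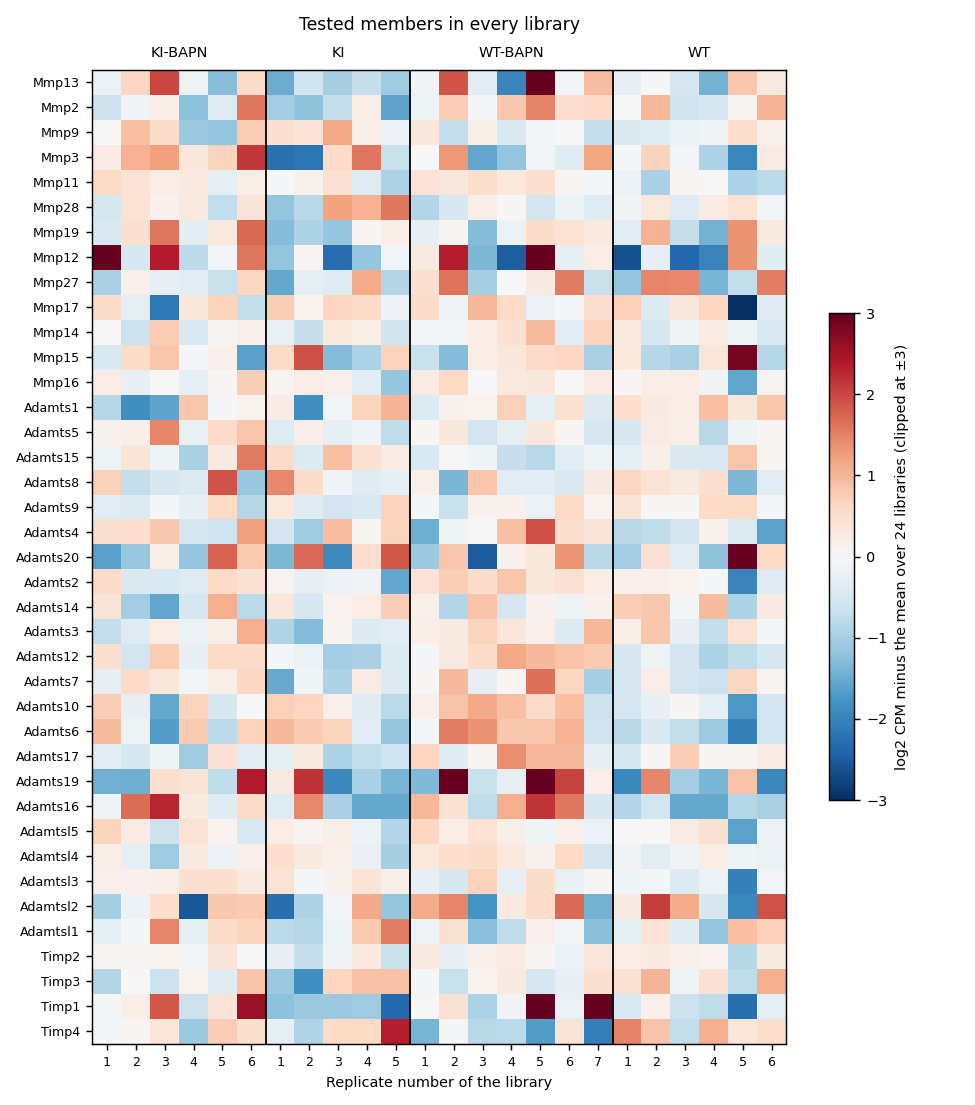
The 39 tested members in every library, as log2 CPM minus the mean over the 24 libraries, clipped at 3 units in either direction, with libraries grouped as KI-BAPN, KI, WT-BAPN and WT. WT replicate 5 stands out with low Mmp17 (13.3 CPM) and Timp2 (432 CPM), and WT-BAPN replicate 5 with high Mmp12 (42.7 CPM) and Mmp13 (6.82 CPM).

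Genes around these proteases were read from 2 further lists. Of 24 activators and other inhibitors 21 were tested. On BAPN in WT 1 rose and 0 fell, where 3.44% of all genes tested rose and 2.70% fell. This was Plat, tissue plasminogen activator, which starts the plasmin step of Mmp activation, with 92.1 CPM in its lowest WT-BAPN library, a median of 134 and a highest value of 154, against 41.3, 59.0 and 77.3 CPM in WT. The groups did not overlap, as was so in this direction for 1.25% of all genes tested. The log2 change was 1.10 ± 0.23 (edgeR adjusted p = 0.0144). Averaged over both genotypes, where 1.98% of all genes rose and 2.17% fell, 2 rose, Plat (0.69 ± 0.17, edgeR adjusted p = 0.0269) and Pcolce, an enhancer of procollagen C-proteinase (0.84 ± 0.21, edgeR adjusted p = 0.0272). Spock3, a testican, fell (-3.90 ± 0.82, edgeR adjusted p = 0.0152), with 38.3 CPM in KI replicate 2, 4.49 in KI replicate 5, 2.67 in KI replicate 1 and 8.18 in WT replicate 5, the 4 libraries with other tissue, and under 1 CPM in every other library. The Spock3 change was not fitted without them. In the other 4 comparisons edgeR called 0 of the 21, with 1 or 2 higher and 1 to 5 lower at an unadjusted p under 0.05, where 4.89% to 8.66% of all genes were higher and 5.21% to 8.27% lower.

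Of 22 matrix substrates, all tested, edgeR called 0 for BAPN in WT, and 6 were higher and 0 lower at an unadjusted p under 0.05, where 12.4% of all genes were higher and 12.5% lower. Col1a1, a chain of collagen I, averaged 2870 ± 971 CPM in WT-BAPN (SD, n = 7) and 1134 ± 446 CPM in WT (SD, n = 6), a log2 change of 1.34 ± 0.43 (edgeR adjusted p = 0.0602), and passed for BAPN averaged over both genotypes (1.11 ± 0.31, edgeR adjusted p = 0.0452). Eln, elastin, had a log2 change of 1.86 ± 0.61 on BAPN in WT (edgeR adjusted p = 0.0654). For both genes the WT-BAPN libraries lay above all WT libraries, as they did for 1.25% of all genes tested. It was also so for the substrates Col3a1, Col1a2 and Fbn1, named after their values were seen. In the other 4 comparisons edgeR called 0 of the 22, with 0 to 2 higher and 0 to 2 lower at an unadjusted p under 0.05, where 4.89% to 8.66% of all genes were higher and 5.21% to 8.27% lower. Acan, aggrecan, averaged 24.6 ± 12.0 CPM in KI-BAPN (SD, n = 6) and 70.6 ± 32.3 CPM in WT-BAPN (SD, n = 7), a log2 change of -1.52 ± 0.37 that did not pass (edgeR adjusted p = 0.243).

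Some members share sequence with a neighbour, and the strand setting of the counts is not given in the sources used here. In GENCODE M21, Timp1 lies inside Syn1, Timp3 inside Syn3 and Timp4 inside Syn2, each on the opposite strand, and these are synapsin genes of neurons. Timp1 and Timp3 share no exon base with them, and Timp4 shares 90 exon bases (1.53% of its own). KI replicate 2, the library richest in sympathetic neuron markers, had 129 CPM of Syn2 and 20.0 CPM of Timp4. KI replicate 5, the KI library with most Timp4, had 33.4 CPM of Syn2. KI replicates 1, 3 and 4 had 8.14 to 9.63 CPM of Syn2. The part of Syn2 reads in the Timp4 counts was not tested. Mmp12 shares 157 exon bases (3.94%) with Mmp1b on the opposite strand, and no Mmp1b read was counted. Mmp19 shares 789 exon bases (22.8%) with Tmem198b, Mmp28 466 (12.3%) with 1700020L24Rik and Adamts8 489 (13.5%) with Gm29724, each on the opposite strand. Adamts9 shares 424 exon bases (5.29%) with Gm15737 and 166 (2.07%) with A730049H05Rik, and Adamts7 122 (2.13%) with Tbc1d2b, also on the opposite strand. These shares of bases do not give the share of reads that came from a neighbour. That share was not tested for any member, so these values are uncertain.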

How the data were processed

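Read counts per gene, raw and as deposited by the authors, were used for 24 libraries. The submitters' processing notes name Trim Galore and FastQC, HISAT2, DESeq2, and GRCm38 or mm10 as build. How reads were counted, on which strand, and the build of the deposited coordinates are not stated in those sources. Of 50 members 5 had the start and end of GENCODE M21. Timp1 started at 20736405 on the X chromosome in the deposited coordinates, while its GRCm38.p6 promoter ended at 20870165. The deposited positions are therefore not all those of GRCm38. The 51 genes without a symbol stayed in under their gene ID. No column was left unmatched.

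A model with a mean for each group was fitted to all libraries in edgeR 4.0.16 (R 4.3.3), with TMM factors, filterByExpr and robust quasi-likelihood tests. A call is an adjusted p (Benjamini-Hochberg over 14216 genes tested) under 0.05. CPM use TMM factors, and log2 CPM a prior count of 2. These steps were tested on simulated data. As alternatives, DESeq2 1.42.0, limma 3.58.1 voom with quality weights, DESeq2 size factors, no filter, no robust estimation, a fit of only the compared groups, a replicate block, and fits without each library or without the 4 rich in other tissue were run. The labels list separate samples, and no pair of libraries within a group was identical (0 of 61), but p-values measure only the spread between these samples.

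Members and lists were chosen with earlier results of these data known. Values and tests are given for members called in any comparison, the Timp genes, the 4 smallest p per comparison and the 2 highest per subfamily. Adamts4, Adamts8, Adamts9, Mmp7, Mmp15, Mmp16, Mmp25, Adamts19, Adamts20 and Adamtsl1 fall outside this rule and were named after their values were seen.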

Additional observations from a re-analysis of the deposited data

Results flagged for a closer look

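In groups of 4 to 10 libraries, 1 library lay far from the rest of its group for 11 of 116 combinations of a named member and a group. By chance about 5% of the 116 combinations would be picked out in this way. WT replicate 5, the library rich in skeletal muscle and airway markers, was the lowest WT library in 7 of them. It had 7.21 CPM of Timp1, 432 of Timp2, 9.21 of Adamtsl3, 64.6 of Adamts10, 13.3 of Mmp17, 58.1 of Adamts2 and 42.9 of Adamtsl5. The next lowest WT library had 849 CPM of Timp2 and 103 CPM of Mmp17. KI replicate 5, the library rich in adipocyte markers, was the lowest KI library for Timp1 (6.85 CPM) and Adamts2 (77.5 CPM). WT-BAPN replicate 3 had the lowest Mmp19 of its group (1.57 CPM), and WT-BAPN replicate 7 the lowest Adamtsl4 (30.0 CPM). The part of other tissue in these values was not tested.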

How the results depend on the processing

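For BAPN in WT, where edgeR called 5 members, DESeq2 called 8 and limma voom 9, both adding Adamts10 and a lower Timp4. DESeq2 also added Mmp12, and voom lost Timp1 (log2 change 0.81, adjusted p = 0.233) while calling 4234 genes in all, against 873 by edgeR. Voom further added Adamtsl4 (0.50, voom adjusted p = 0.0152), Adamts4 (1.24, voom adjusted p = 0.0483) and Adamts2 (0.58, voom adjusted p = 0.0285). With 1 library left out the count was 2 to 5. For BAPN in KI DESeq2 called 1 member. For BAPN averaged over both genotypes, where edgeR called 5, the count was 3 with no low count filter, 7 by DESeq2 and by voom, and 2 to 7 with 1 library left out. There DESeq2 added Mmp13 (log2 change 2.27, DESeq2 adjusted p = 0.0167) and a lower Timp4 (-1.10, DESeq2 adjusted p = 0.0203). Voom lost Mmp12 (2.43, voom adjusted p = 0.102) and added Adamts10, Adamts2 and Adamts6. Its change for Timp1 was 1.27 (voom adjusted p = 0.0456). For KI against WT on either water and for the interaction the count was 0 under every alternative run. No recomputed result was reversed. The cause of these shifts was not tested.

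Same-numbered libraries deviated together little: over 33 pairs the correlation ran from -0.52 to 0.57, with a median of 0.070. Over 182 pairs with other numbers the median was -0.0043. With ranges this wide, these correlations cannot decide whether the numbers pair the animals. A replicate block in edgeR gave 5 called members for BAPN in WT, 4 of them shared, without Timp1 (log2 change 1.32, adjusted p = 0.256). It gave 0 for BAPN in KI and 2 for BAPN averaged over both genotypes, Adamts12 and Mmp11. Depth limits the members under 1 CPM, such as Adamts16 and Mmp13, where a library holds few reads.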

Other observations

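Some members were highest in WT replicate 5, the library rich in airway and skeletal muscle markers. Mmp25, a membrane-type Mmp of leukocytes, had 8.35 CPM there and 0 to 0.0924 CPM in the other WT libraries, with up to 1.48 CPM in KI-BAPN. Mmp7, matrilysin, had reads in 2 of 24 libraries, with 0.915 CPM in WT replicate 5 and 0.0410 CPM in WT-BAPN replicate 2. Of the tested members, Mmp15 had 55.8 CPM and Adamts20 had 6.75 CPM in WT replicate 5, against 3.85 to 9.81 CPM and 0.138 to 0.723 CPM in the other WT libraries. Mmp15 was also high in KI replicate 2, at 29.3 CPM. The 7359 CPM of adipocyte markers in KI replicate 5 came with 193 CPM of Timp4, while KI-BAPN replicate 3, with 7499 CPM of the same markers, had 48.0 CPM of Timp4.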
